A study of Mus musculus with 4 samples.

Results

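The 10 genes described here carry insulin and insulin-like growth factor (IGF) signals: the receptors Insr and Igf1r, the ligand gene Igf1, the receptor substrates Irs1, Irs2 and Irs4, and the binding proteins Igfbp2, Igfbp3, Igfbp4 and Igfbp5. They were found by gene name among the 26955 genes of the deposited table, and all 10 passed the filter on low counts. Irs4 and Igf1 would not have passed on their cKO counts alone. Irs4 was chosen by its difference between the genotypes in these same libraries, and the other 9 were added by family and role with earlier results of these data known. The differences between genotypes are therefore given for these genes as a description with no test.

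RNA was sequenced from mouse embryos on a C57BL/6 background at embryonic day 13 (E13), in 2 libraries labelled GSDMDfl/fl;Nestin-Cre (cKO, replicates 2 and 6) and 2 labelled WT (replicates 4 and 5). In cKO embryos both Gsdmd alleles carry loxP sites, and Cre driven by the Nestin promoter is meant to delete the gene in neural progenitor cells and what descends from them. Blood, vessel and microglial cells are not the target of this design, and deletion by cell type was not measured in these libraries. The paper describes the tissue as cerebral cortex and the controls as Gsdmd fl/fl, whereas the labels say brain and WT, and the controls are not described as carrying Cre, so an effect of Cre and one of the deletion cannot be told apart. Libraries held 16962553 to 18205945 counts, and no source used here says that they came from separate embryos, so the stated errors measure the spread between these libraries only. The series text speaks of triplicates, and 2 libraries of each genotype were analysed here. Levels are given in CPM, counts scaled to a common library size after TMM normalization, and SE stands for standard error.

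Insulin and the IGFs bind receptor tyrosine kinases at the cell surface, which phosphorylate the insulin receptor substrates, docking proteins without enzyme activity of their own. The phosphorylated substrates recruit PI3-kinase and Grb2 and so pass the signal to AKT, mTOR and the MAP kinases. The IGF binding proteins hold IGFs outside the cell and either withhold or deliver them. In the embryonic brain this pathway is known for promoting growth and survival of neural progenitors, with Igf2 from choroid plexus and meninges as a main ligand, and Irs4 is known from the hypothalamus rather than the cortex.

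Several facts of the libraries touch the results below. Gsdmd, the deleted gene, had 13 and 7 counts in cKO, against 54 and 43 in WT (log2 fold change -2.34, edgeR adjusted p = 0.0846), lower in both cKO libraries as labelled. WT replicate 5 stood apart, with 7640 counts of the female transcript Xist against 1 to 12 in the other libraries and 2387 counts of the choroid plexus gene Ttr against 3 to 10. Markers of the dorsal telencephalon, which the tissue should hold, summed to 3195.5 and 3509 CPM in cKO and 3116 and 2834 CPM in WT, and Emx1, Tbr1 and Neurod6 had at least 2174 counts in every library.

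Irs4 lies on chromosome X from 141710998 to 141725263 on the minus strand, Irs1 on chromosome 1 from 82233101 to 82291416 and Irs2 on chromosome 8 from 10984681 to 11008458, also on the minus strand. All 3 have 2 exon blocks, 6294, 9144 and 6323 bases long in sum for Irs4, Irs1 and Irs2. The 250 bases upstream of their RefSeq starts (GRCm38.p6, the minus strand read 5′ to 3′) are shown because the results turn on the substrates and their windows share a stretch, except that the 46 bases of Irs4 nearest that start are left out, since GENCODE places them in its first exon. Distances below are counted from the RefSeq starts. The GENCODE starts of Irs2 (11008458) and Irs1 (82291416) lie downstream of these, their windows ending at 11008930 and 82291440. Capitals mark the stretch shared by all 3 in Irs1 and the longer one shared by Irs4 and Irs2 in those genes.
Irs4 (chrX:141725264-141725467): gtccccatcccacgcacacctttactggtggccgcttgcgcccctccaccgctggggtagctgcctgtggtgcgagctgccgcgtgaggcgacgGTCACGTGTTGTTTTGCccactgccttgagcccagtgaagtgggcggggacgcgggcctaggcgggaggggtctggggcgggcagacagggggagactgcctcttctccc
Irs2 (chr8:11008930-11009179): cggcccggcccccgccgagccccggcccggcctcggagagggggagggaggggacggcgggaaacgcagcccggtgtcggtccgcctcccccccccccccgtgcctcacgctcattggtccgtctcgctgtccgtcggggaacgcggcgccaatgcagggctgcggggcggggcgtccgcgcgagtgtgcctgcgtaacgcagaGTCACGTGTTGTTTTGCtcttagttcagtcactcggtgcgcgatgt
Irs1 (chr1:82291440-82291689): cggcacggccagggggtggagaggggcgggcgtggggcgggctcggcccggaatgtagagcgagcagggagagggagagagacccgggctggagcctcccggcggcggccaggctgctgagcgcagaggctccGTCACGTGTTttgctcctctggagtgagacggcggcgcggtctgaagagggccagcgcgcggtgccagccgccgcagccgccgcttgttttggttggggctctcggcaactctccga

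The stretch common to Irs4 and Irs2 is 17 bases long, GTCACGTGTTGTTTTGC, and begins 156 bases before the start of Irs4 and 46 bases before that of Irs2. It was present in these 2 of 32851 windows of the same length (0.00609%), on either strand. The 10 bases common to all 3 genes, GTCACGTGTT, were present in 23 windows (0.07%) and begin 117 bases before the start of Irs1. Both stretches contain the E-box CACGTG, the palindrome bound by many basic helix-loop-helix factors, which 6.02% of all windows held. None of the 3 windows held the letters TATAAA (in 12.4% of windows), the homeodomain core TAATTA (4.84%) or the FOXO motif GTAAACA (3.17%) on either strand, whereas all 3 held the GC box GGGCGG or its complement (32.7%). The search for shared stretches was made after the sequences were seen. Of the 10 genes, 9 had an entry in the RefSeq table, and among those the E-box was also found in 1 of the 2 windows of Igfbp2.

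Irs4 was lower in the cKO libraries. Its counts were 11 and 7 in cKO, against 62 and 56 in WT. In CPM these were 0.606 and 0.390 in cKO and 3.56 and 3.33 in WT. The groups lay far apart relative to the gap within either, with means of 0.498 ± 0.153 CPM in cKO and 3.44 ± 0.157 CPM in WT (SD, n = 2 per group). The log2 fold change of cKO over WT was -2.77 with an SE of 0.36, a level 6.83-fold lower in cKO. Counting error alone gives a ratio of WT to cKO of 6.91 with a 95% interval of 4.19 to 12.1 from 118 and 18 counts. This gene was the only one of the 10 that edgeR's quasi-likelihood test called, where 0.202% of the 15804 tested genes were called, and it was selected on that value, so nothing is read from the count. Without WT replicate 5 the log2 fold change of Irs4 was -2.81, but edgeR called no gene at all there (694 were at an unadjusted p under 0.05), and without a filter on low counts it was -2.76 and not called either.

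Irs4 is a gene of low abundance in this tissue, its mean CPM exceeding that of 17.2% of tested genes. It is X-linked, and its counts in WT replicate 4 (62) and in WT replicate 5 with its Xist counts (56) were close. The 544 tested genes of chromosome X had a median log2 fold change of -0.08, against -0.01 for all tested genes. Col4a5, a basement membrane collagen gene 21.8 kb from Irs4, had 202 and 185 counts in cKO and 186 and 144 in WT (log2 fold change 0.16, SE 0.18, adjusted p = 0.902 from edgeR). Col4a6 on the same side had a log2 fold change of -0.06, and on the far side Gm6382 and Nxt2, 486 and 502 kb away, had -0.19 and -0.44, none of them called. The gene Gm15295 overlaps Irs4 on the opposite strand and had 1 and 0 counts in cKO and 1 and 0 in WT.

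**Figure D1:**
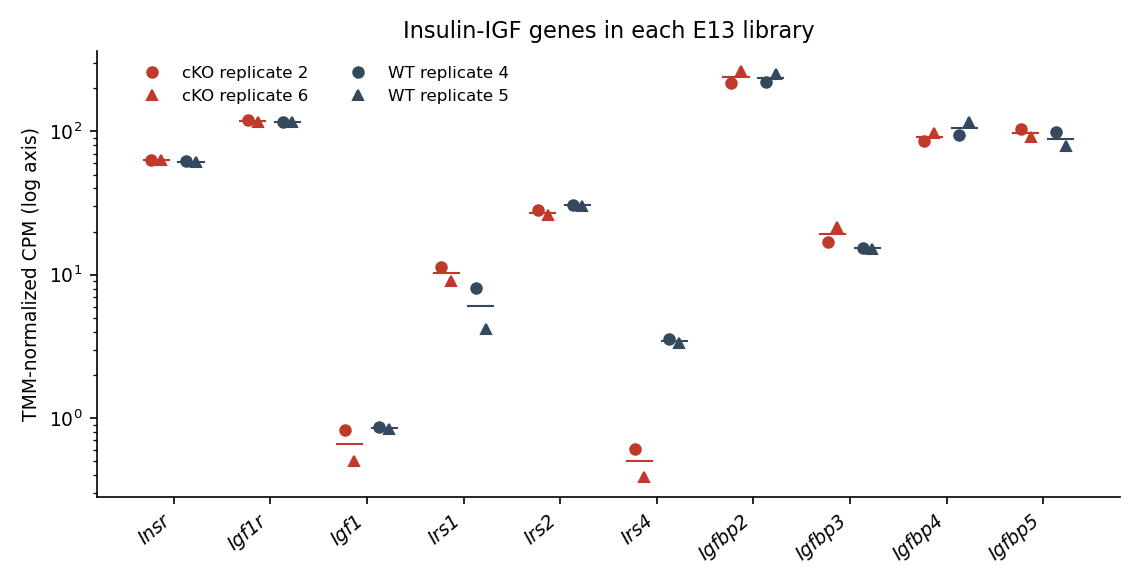
Level of each of the 10 genes in TMM-normalized CPM on a log axis, with cKO libraries in red on the left and WT libraries in dark blue on the right of each gene, and a line at each group's mean (n = 2 per group). Irs4 stands at 0.390 to 0.606 CPM in cKO and 3.33 to 3.56 CPM in WT, whereas Insr lies at 61.0 to 62.7 CPM throughout.

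Irs1, a main substrate of both receptors in many tissues, differed in the other direction. Its counts were 206 and 163 in cKO, against 140 and 70 in WT, or 11.4 and 9.09 CPM in cKO and 8.03 and 4.17 CPM in WT. The cKO libraries were both above the WT libraries, but the WT libraries were themselves far apart, replicate 5 being the low one. The log2 fold change was 0.74 (SE 0.29), and it was 1.29 without WT replicate 4 and 0.36 without WT replicate 5. Between the WT libraries the log2 difference of replicate 5 from replicate 4 was -0.87, and 0.275% of the 13068 tested genes with at least 2 CPM were as low or lower in replicate 5. An antisense gene, Gm9747, covers 2822 bases of Irs1 exons, and reads of the pair cannot be told apart without a strand setting.

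Irs2, the substrate gene that is also a FoxO target in liver, had 510 and 468 counts in cKO and 538 and 510 in WT. This is 28.1 and 26.1 CPM in cKO and 30.9 and 30.4 CPM in WT, so both cKO libraries were slightly below both WT libraries. The log2 fold change was -0.18 (SE 0.14). Irs3, the remaining mouse substrate gene, was near absent, with 0 and 1 counts in cKO and 1 and 1 in WT.

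Set beside each other per kb of exon, the substrates formed a pool dominated by Irs2. Irs4 made up 1.67% and 1.20% of the summed CPM per kb of the 3 substrates in cKO, against 8.94% and 9.15% in WT. Irs1 made up 21.5% and 19.2% in cKO, against 13.9% and 7.87% in WT. Irs2 held 76.9% and 79.6% in cKO and 77.2% and 83.0% in WT, so the shares of Irs2 overlapped between the groups. The ratio of Irs1 to Irs4 per kb was 12.9 and 16.0 in cKO, against 1.55 and 0.860 in WT. The sum of the 3 was 5.78 and 5.18 CPM per kb in cKO and 6.32 and 5.79 CPM per kb in WT.

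**Figure D2:**
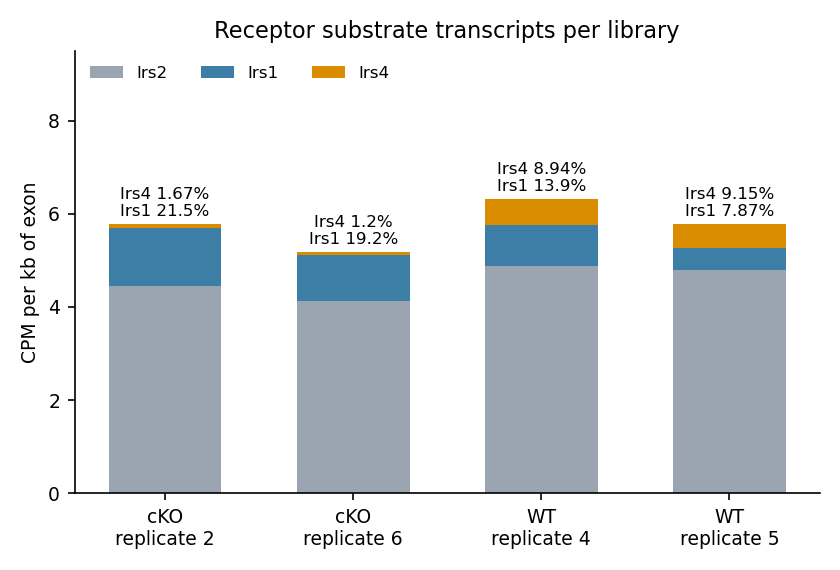
Stacked level of Irs2, Irs1 and Irs4 in CPM per kb of exon in each library, cKO on the left and WT on the right, with the shares of Irs4 and Irs1 printed above each bar. Irs2 makes up most of every bar, and the Irs4 share is 1.20% to 1.67% in cKO and 8.94% to 9.15% in WT.

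The levels of both receptors were close between the genotypes. Insr, the insulin receptor, had 1138 and 1125 counts in cKO and 1081 and 1024 in WT, or 62.7 ± 0.0220 CPM in cKO and 61.5 ± 0.733 CPM in WT (SD, n = 2 per group). Its log2 fold change was 0.03 with a 95% interval of -0.20 to 0.26. Igf1r, the IGF receptor, had 120.3 and 115.9 CPM in cKO and 117.2 and 116.2 CPM in WT, and its groups overlapped. Its log2 fold change was 0.02 with a 95% interval of -0.21 to 0.25. Per kb of exon the ratio of Igf1r to Insr was 1.57 and 1.51 in cKO and 1.55 and 1.56 in WT.

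Igf1, the ligand of that receptor, was barely detected. It had 15 and 9 counts in cKO and 15 and 14 in WT, at 0.826 and 0.502 CPM in cKO and 0.860 and 0.833 CPM in WT. The log2 fold change was -0.35 with an SE of 0.47, with -0.74 when cKO replicate 2 was left out and -0.02 when cKO replicate 6 was, so the difference was not larger than the gap between the cKO libraries. At this depth a ratio of WT to cKO from 0.716 to 2.28 lies within the 95% counting interval.

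Of the 4 binding proteins, Igfbp2 had the highest level, which was also the highest of all 10 genes. This IGF carrier of embryonic neuroepithelium and choroid plexus had 216.6 and 263.7 CPM in cKO and 220.0 and 249.5 CPM in WT, with overlapping groups and a log2 fold change of 0.03 (95% interval -0.28 to 0.34). Igfbp4, which mostly inhibits IGF action, had 85.8 and 98.1 CPM in cKO and 94.7 and 116.1 CPM in WT (log2 fold change -0.20, SE 0.13). Igfbp5, the neighbour of Igfbp2 on chromosome 1, had 104.0 and 91.9 CPM in cKO and 98.3 and 78.7 CPM in WT (log2 fold change 0.15, SE 0.13). For both the ranges of the groups overlapped. Igfbp3, the main carrier of IGFs in serum, had 16.9 and 21.7 CPM in cKO and 15.4 and 15.2 CPM in WT. Both cKO libraries were above both WT libraries, at a log2 fold change of 0.34 (SE 0.17), but the gap between the cKO libraries was larger than that between the groups. With 1 library left out it ran from 0.16 to 0.51.

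Of the 10 genes, 3 had both cKO libraries above both WT libraries (Irs1, Insr and Igfbp3), as did 16.9% of all tested genes, and 3 had both below (Irs2, Irs4 and Igf1), as did 20.3%. The median log2 fold change of the 10 was 0.02, against -0.01 over all tested genes. In size, 24 of the tested genes, Irs4 included, had an absolute log2 fold change at least as large as that of Irs4.

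**Figure D3:**
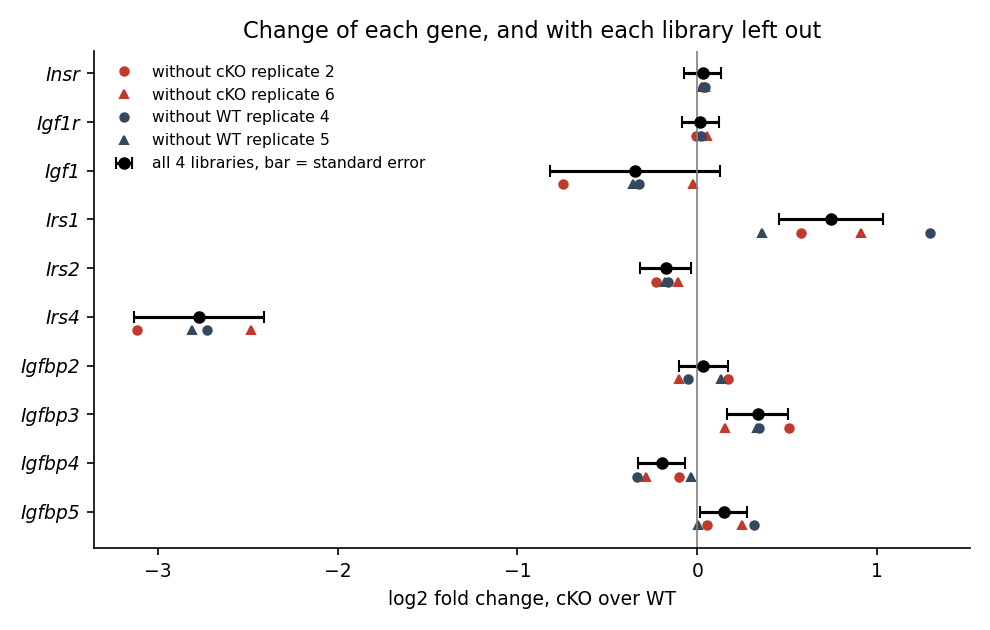
Log2 fold change of cKO over WT for each gene with its SE (black, 4 libraries), and below it the value with each library left out (red for a cKO library, dark blue for a WT library). Irs4 stays between -3.12 and -2.48 whichever library is left out, Irs1 moves between 0.36 and 1.29, and Insr stays at 0.03 to 0.04.

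Per kb of exon, the order of levels over the 4 libraries was Igfbp2 (mean 128.6 CPM per kb), Igfbp4 (22.3), Igfbp5 (15.5), Igf1r (6.99), Igfbp3 (5.52), Irs2 (4.56), Insr (4.52), Irs1 (0.892), Irs4 (0.313) and Igf1 (0.0763). Igfbp2, Igfbp4 and Igfbp5 each exceeded the next gene in all 4 libraries with ranges that did not overlap, and so did Insr over Irs1. The ranges of Igf1r and Igfbp3, of Igfbp3 and Irs2, of Irs2 and Insr, of Irs1 and Irs4, and of Irs4 and Igf1 overlapped. Irs2 was above Insr in 2 libraries and below it in 2. Irs1 was above Irs4 in 3 libraries and below it in WT replicate 5. Exon lengths are those of all annotated transcripts merged, so genes with long unused exons are placed too low.

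Other genes of the pathway were taken from lists by role, and 72 of the 81 in the table passed the filter on low counts. None of the 72 was called by edgeR's quasi-likelihood test. At an unadjusted p under 0.05, 7 of the 72 were higher and 1 was lower, against 3.32% and 3.79% of all tested genes. The share higher was above, and the share lower below, that of all tested genes, and neither difference was tested. DESeq2 called 1 of them, Pappa2 (0.513% of all tested genes were called), and limma-voom 0 (0.171%). Their median log2 fold change was 0.04. In simulated data the edgeR step found 22% of 1.5-fold and 64% of 2-fold changes, so a gene not called may still differ.

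Among ligands and receptors, Igf2, the main fetal IGF and an imprinted gene, had 718 and 792 counts in cKO, against 761 and 1023 in WT (log2 fold change -0.32, SE 0.17, adjusted p = 0.760 from edgeR). Its highest value was in WT replicate 5, the library with the Ttr counts. Markers of choroid plexus and hem summed to 15.2 and 32.1 CPM in cKO and 38.7 and 190.4 CPM in WT, with 1 of 14, Kcnj13, at 0 in both cKO libraries. Kcnj13 had only 2 and 0 counts in WT and was not tested. Of 11 tested, 8 had a log2 fold change below 0, as did 52.4% of all tested genes. Otx2, a transcription factor gene with 58 and 28 counts in cKO, against 272 and 236 in WT, was called lower by edgeR (0.196% of all tested genes). Those of meninges and mesenchyme summed to 18.5 and 14.6 CPM in cKO and 19.2 and 25.5 CPM in WT. Their part in the Igf2 values was not tested. Insrr, the orphan receptor of the insulin receptor family, had 14 and 5 counts in cKO and 19 and 48 in WT (log2 fold change -1.89, SE 0.61, adjusted p = 0.551 from edgeR), with WT replicate 5 high again. Igf2r, the receptor that clears Igf2, had 109.8 and 97.8 CPM in cKO, against 88.3 and 76.7 CPM in WT (log2 fold change 0.33, adjusted p = 0.618 from edgeR).

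Among binding proteins and their proteases, Pappa2 came closest to the threshold. This metalloproteinase, which cleaves Igfbp3 and Igfbp5 and so frees IGFs, had 347 and 299 counts in cKO, against 129 and 156 in WT. In CPM this was a mean of 17.9 ± 1.73 CPM in cKO and 8.34 ± 1.34 CPM in WT (SD, n = 2 each), and cKO over WT gave a log2 value of 1.10 (SE 0.18, edgeR adjusted p = 0.0769). It was called higher by DESeq2 and in the fits without cKO replicate 2, cKO replicate 6 or WT replicate 4, and not without WT replicate 5. For the serine protease gene Htra1 the log2 fold change was 1.27 (SE 0.65, edgeR adjusted p = 0.758), which rested on cKO replicate 6 (178 counts, against 31 in cKO replicate 2 and 34 and 48 in WT). Igfbpl1, a binding protein-like gene of immature neurons, was abundant in every library, with 9059 and 13022 counts in cKO and 9240 and 10432 in WT. Igfbp1 and Igfbp6 were at 0 counts in cKO throughout, against 1 and 1 for Igfbp1 and 1 and 8 for Igfbp6 in WT.

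Of the 18 tested adaptors and regulators at the receptor none was called, and Dok5, a docking protein related to the substrates, had the smallest p, with 32.8 and 54.4 CPM in cKO, against 21.9 and 28.7 CPM in WT (log2 fold change 0.78, adjusted p = 0.499 from edgeR). Ptpn11, the phosphatase Shp2, had a value of 0.26 (adjusted p = 0.693). Of the 21 genes of PI3-kinase, AKT and FoxO none was called and the median log2 fold change was 0.00. Phlpp2, a phosphatase of AKT, had 29.8 and 25.4 CPM in cKO, against 23.7 and 20.7 CPM in WT (log2 fold change 0.31, adjusted p = 0.760 from edgeR). Of the 16 genes of the mTOR branch none was called, with Mlst8 and Mtor, subunits of the mTOR complexes, at log2 fold changes of 0.38 and 0.26 (adjusted p = 0.642 and 0.687 from edgeR). The 3 genes for Igf2 mRNA binding proteins lay between -0.01 and 0.20, with Igf2bp3 at 0.20 and Igf2bp1 at 0.11 (adjusted p = 0.884 and 0.8997 from edgeR). Of the 6 tested genes of the growth hormone axis, which controls Igf1 in liver, none was called, and Jak2 and Socs2 had log2 fold changes of -0.25 and 0.25 (adjusted p = 0.751 and 0.769 from edgeR).

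**Figure D4:**
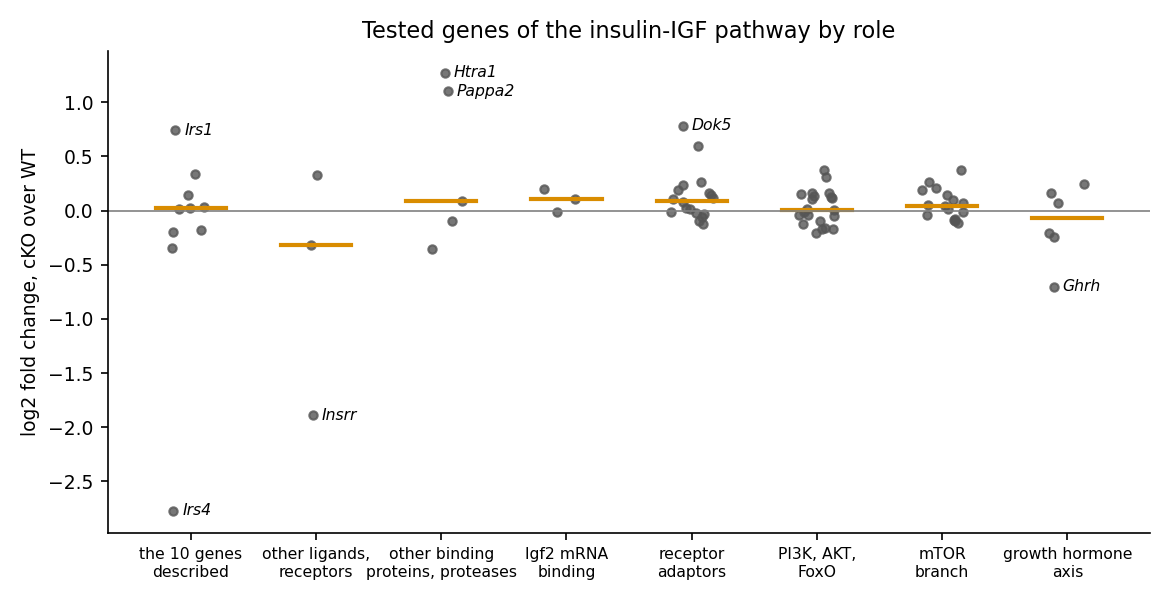
Log2 fold change of cKO over WT for every tested pathway gene, grouped by role, with a bar at each group's median and names for genes beyond 0.7 in either direction. Most genes lie near 0, and Irs4 and Insrr are the low and Htra1 and Pappa2 the high points.

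The 6 genes whose profiles were most like that of Irs4 were Calcr, D030055H07Rik, Gsdmd, Aifm3, Zic1 and Onecut2. Likeness was the Euclidean distance between centred log2(CPM + 0.5) values over the 4 libraries, among 14409 other genes with at least 1 CPM on average, and it ran from 0.309 for Calcr to 0.402 for Onecut2. Calcr, the calcitonin receptor gene, had 9 and 5 counts in cKO and 40 and 41 in WT. Aifm3, a mitochondrial flavoprotein gene, had 67 and 68 counts in cKO and 258 and 308 in WT. With 4 libraries such a match reflects mainly the difference between the groups on this scale, and these genes share the libraries and their depth. The added 0.5 shrinks the difference of a gene as low as Irs4, so the match does not follow the fold change. The log2 fold changes of the 6 ran from -2.59 for Calcr to -1.79 for D030055H07Rik, against -2.77 for Irs4.

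Because Irs4 is known from the hypothalamus, a marker list of that region is given beside it. Of its 15 tested markers, 12 had a log2 fold change below 0, as did 52.4% of all tested genes, and 4 were called lower by edgeR's quasi-likelihood test (0.196% of all tested genes), the transcription factor genes Bsx, Hmx2 and Hmx3 and the imprinted gene Magel2. None was called higher, and the median was -1.06. Bsx, Hmx2, Hmx3 and Six6 passed the filter on low counts only through their WT counts, and Agrp only through its cKO counts. The direction of such genes is bound to the group that let them pass. The list was also chosen with earlier results of these data known, so nothing is read from the number called, the number below 0 or the median. The list summed to 216.7 and 164.3 CPM in cKO, against 371.4 and 473.1 CPM in WT. Without Nkx2-1, a transcription factor gene that the ventral telencephalon list also holds, it summed to 168.5 and 146.9 CPM in cKO, against 246.5 and 326.2 CPM in WT. Large parts of this remainder were Magel2 and Dlk1. Magel2 had 46.7 and 38.0 CPM in cKO, against 79.3 and 83.2 CPM in WT. Dlk1, which edgeR did not call (adjusted p = 0.0576), had 44.0 and 27.2 CPM in cKO, against 84.0 and 126.4 CPM in WT. The genes Hmx2, Rax, Nkx2-4, Six6 and Hcrt, 5 of the 21 in the table, were at 0 in both cKO libraries, while WT had 52 and 48 counts of Hmx2 and 10 and 49 of Six6. Rax (0 and 3 counts in WT), Nkx2-4 (0 and 2) and Hcrt (0 and 1) were near absent from WT too and were not tested. How many of all genes were at 0 in both cKO libraries was not counted, so nothing is read from the 5. Bsx had 0 and 2 counts in cKO and 56 and 57 in WT, and Hmx3 had 1 and 0 in cKO and 41 and 44 in WT. Pomc, a hypothalamic neuropeptide precursor gene, had 48 and 62 counts in cKO and 89 and 129 in WT, and did not pass (adjusted p = 0.341 from edgeR). Ghrh, which encodes growth hormone releasing hormone, had 11 and 9 counts in cKO and 16 and 15 in WT. The other 3 tested markers, Lhx9, Agrp and Fezf1, had log2 fold changes above 0. Lhx9, a LIM homeobox gene, had 502 and 622 counts in cKO and 386 and 384 in WT (log2 fold change 0.47), and Agrp, a feeding neuropeptide gene, had 11 and 18 in cKO and 5 and 8 in WT (1.07), so both cKO libraries were above both WT libraries for each. Fezf1, a zinc finger gene, had 388 and 295 counts in cKO and 238 and 297 in WT (0.27), with overlapping groups, and edgeR called none of the 3 (adjusted p = 0.618, 0.760 and 0.839 for Lhx9, Agrp and Fezf1). The part of these markers in the Irs4 difference was not tested. In bulk RNA, fewer cells of a kind and less RNA in each cannot be told apart.

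Markers of the ventral telencephalon are given beside Irs4 too. This list and the other marker lists were also chosen with earlier results of these data known, so nothing is read from their counts of genes. All 20 had a log2 fold change below 0, as did 52.4% of all tested genes. Both cKO libraries were below both WT libraries for 18 of them (20.3% of all tested genes). At an unadjusted p under 0.05 from edgeR, 17 were lower (3.79% of all tested genes). Only Pnoc, the nociceptin precursor gene, was called lower by edgeR (0.196% of all tested genes). The 20 markers summed to 1242 and 854 CPM in cKO, against 1605 and 1851 CPM in WT. Without Nkx2-1 they summed to 1193 and 836.7 CPM in cKO, against 1480.2 and 1704 CPM in WT. Of the dorsal markers 11 of 12 were above 0, as were 47.6% of all tested genes, and none was called. The endothelial and pericyte list summed to 168.0 and 179.6 CPM in cKO and 174.9 and 199.5 CPM in WT, the microglial one to 36.0 and 41.4 CPM in cKO and 46.0 and 45.5 CPM in WT, and the erythroid one to 527.8 and 568.1 CPM in cKO and 689.4 and 1035 CPM in WT, with no gene called in any of them. Below 0 were 9 of 10 erythroid, 8 of 10 microglial and 8 of 13 endothelial and pericyte genes (52.4% of all tested genes). At an unadjusted p under 0.05 from edgeR, 7 erythroid, 1 microglial and 1 endothelial or pericyte gene were lower (3.79% of all tested genes). Whether these shifts bear on Irs4 or Irs1 was not tested.

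**Figure D5:**
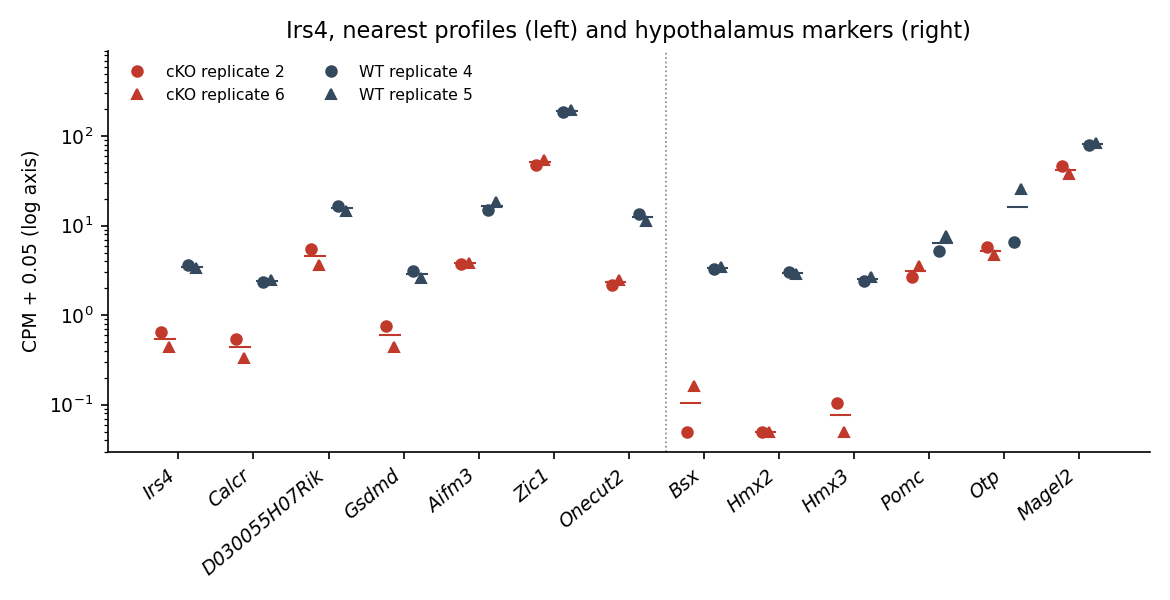
CPM plus 0.05 on a log axis for Irs4 and its 6 nearest profiles (left of the dotted line) and for 6 hypothalamus markers picked for display (right), with cKO libraries in red and WT libraries in dark blue. All 6 markers had log2 fold changes below 0, and the tested markers above 0 (Lhx9, Agrp and Fezf1) are not shown. Otp was high in WT replicate 5 only, with 433 counts there, 114 in WT replicate 4 and 104 and 83 in cKO. Bsx, Hmx2 and Hmx3 are at or near 0 in cKO with 2 counts or fewer per library, and Irs4 keeps 11 and 7 counts there.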

How the data were processed

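Total RNA of E13 brain was sequenced on an Illumina instrument. Read counts for each gene, in whole numbers, were deposited by the authors, and the submitters' processing notes name TopHat2 2.0.12, Bowtie2 2.2.3, HTSeq 0.6.0 and the build mm9. For the annotation release, strand setting and read filters, nothing is stated in the sources used here. Of 26897 deposited gene positions, 92.9% equal those of GENCODE M21 on GRCm38, and those of the 10 genes all do, so positions and exon lengths follow that annotation. The authors also deposited their own comparison (a normalized mean signal, a linear fold ratio, a log2 fold change and p-values), and none of it was used.

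Counts were filtered with filterByExpr (15804 genes kept), scaled by TMM and compared with edgeR 4.0.16 (glmQLFit and glmQLFTest, prior count 0.125, no covariate) in R 4.3.3. SE came from the log2 fold change and the square root of F, as their quotient, and 95% intervals use 8.82 degrees of freedom. Genes at a Benjamini-Hochberg adjusted p under 0.05 were called. Counting intervals are exact binomial and cover counting error only. The genes and lists were chosen with earlier results of these data known. Named beside the 10 genes are the 2 genes of smallest p in each pathway list, called markers and those at 0 in a group, the nearest neighbours and profiles of Irs4, and genes picked after their values were seen (Igf2, Igfbpl1, Igfbp1, Igfbp6, Irs3, Pomc, Ghrh, Lhx9, Agrp, Fezf1, Dlk1, Otp, Nkx2-1, Emx1, Tbr1, Neurod6, Xist and Ttr). The edgeR step was first tested on simulated data. Alternatives were DESeq2 1.42.0, its size factors, limma-voom (limma 3.58.1), no filter, 1 CPM in 2 libraries, a prior count of 2 and leaving out each library. 1 gene that the naming rule selects is not reported here. Promoter windows come from RefSeq.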

Additional observations from a re-analysis of the deposited data

How the results depend on the processing

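Irs4 was called in 8 of the 10 alternatives and was lower in cKO in all 10, with log2 fold changes of -3.12 to -2.48. The call was lost without a filter on low counts (-2.76) and without WT replicate 5 (-2.81). Irs1 was called in 1 alternative, without WT replicate 4 (1.29). The sign turned for Igf1r without cKO replicate 2 (-0.0088, in a range of -0.0088 to 0.056 over the libraries left out) and for Igfbp2 without cKO replicate 6 (-0.10) or WT replicate 4 (-0.05), in a range of -0.10 to 0.17. Of the values of the 10 genes under alternatives, 93 kept their direction and side of the threshold, 2 lost the call, 1 gained it and 3 changed sign. Igf1 was not tested with the filter of 1 CPM. Because Irs4 was selected on these same counts, nothing is read from how often it was called. A prior count of 2 changes the fold changes but not the p-values, so no call could change there.

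Over all genes, 32 were called as reported, 81 by DESeq2 and 8 without a filter, where 26955 genes were tested. With 1 library left out the count was 0 to 292: 260 without cKO replicate 2, 158 without cKO replicate 6, 292 without WT replicate 4 and 0 without WT replicate 5 (694 at an unadjusted p under 0.05 there). Why the count over all genes moved was not tested. Of the other pathway genes 0 were called as reported (0.202% of all tested genes) and 1, Pappa2, by DESeq2 (0.513%). With 1 library left out a group holds only 1 library, so nothing is read from the pathway genes called there. No paired analysis was possible because the groups share no replicate number. The low counts of Irs4 and Igf1 limit the precision of their ratios.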
